A study of Mus musculus with 27 samples.

Results

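This account covers the miRNA libraries of mouse hippocampus from a study of xanthohumol (Xmo), a prenylated flavonoid of hops, and asks which miRNAs differed between Xmo and saline in the same direction whatever the surgery. The members were 12 miRNA libraries of the 27 samples in the series, namely 6 Xmo libraries and 6 saline libraries, taken by their labelled treatment. The Xmo libraries were 3 from ovariectomised mice given Xmo (OVX Xmo) and 3 from sham-operated mice given Xmo (sham Xmo). The saline libraries were 3 from ovariectomised mice (OVX saline) and 3 from sham-operated mice (sham saline). The mice were all ICR, an outbred stock, and no group carried an engineered allele according to the labels. Age, dose, duration and route of treatment are not stated in the labels, and nothing states that replicates were separate animals, so the p-values measure only the spread between these libraries.

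A miRNA is a short RNA cut from a hairpin precursor, which can give a mature strand from its 5′ arm (5p) and another from its 3′ arm (3p). The mature strand guides an Argonaute protein to messenger RNAs, mostly through its seed, bases 2 to 8, and the bound messages are repressed. In the hippocampus miRNAs are known for tuning synaptic growth, plasticity and stress responses, and ovariectomy is used in rodents to remove the ovarian source of oestrogen. Mature strands of miRNAs were counted as reads, and levels are given as CPM, the count per 1e+06 counts of a library, after trimmed-mean (TMM) scaling, so a level is a share of its library. In whole tissue, fewer cells of a type and less of a miRNA per cell cannot be told apart.

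The mature sequences of the miRNAs on which the results turn are shown first, from RefSeq (GRCm38.p6), 5′ to 3′, with the seed in capitals. Both arms of miR-412 and the mature strands of miR-135a and miR-3082 are shown because 3 of the 4 miRNAs that passed the test are among them.
miR-412-5p: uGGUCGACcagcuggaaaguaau
miR-412-3p: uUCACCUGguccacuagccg
miR-135a-5p: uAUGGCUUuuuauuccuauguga
miR-3082-3p: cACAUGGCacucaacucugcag
The lower miRNAs with no overlap between treatments included a miR-181 member and a pair of miR-344 members, shown with relatives so that seeds can be compared.
miR-181d-5p: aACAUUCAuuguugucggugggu
miR-181a-5p: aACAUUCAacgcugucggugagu
miR-181c-5p: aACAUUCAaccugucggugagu
miR-344-3p: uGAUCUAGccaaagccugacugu
miR-344c-3p: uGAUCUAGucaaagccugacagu
miR-700-3p: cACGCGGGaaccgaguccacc
The 3 miR-181 strands share 1 seed, and miR-344-3p and miR-344c-3p share another. The fourth miRNA that passed, miR-122-5p, is named only.

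Library totals lay between 9.66 and 10.96 × 1e+06 reads. They averaged 9.97 ± 0.208 × 1e+06 in Xmo libraries and 10.4 ± 0.300 × 1e+06 in saline libraries (SD, n = 6 each; two-sided exact permutation test, p = 0.00649), so depth moved with treatment; its part in the results was not tested. Of 1387 miRNAs in the table, 605 passed the filter on low counts and were tested. Of the miRNAs known from neurons, miR-124-3p, the abundant neuronal miRNA, averaged 85151.3 ± 9336 CPM in Xmo libraries and 89190.4 ± 7500 CPM in saline libraries. All 14 miRNAs of the neuronal list were detected well enough to be tested. So were all 3 of the liver list and all 5 of the red blood cell list, so being tested does not tell tissues apart. The tissue label was not tested.

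Across both surgeries, 4 of the 605 miRNAs (0.661%) passed a Benjamini-Hochberg adjusted p under 0.05 for the Xmo main effect in edgeR's quasi-likelihood test with surgery as a covariate. All 4 had the same direction in OVX and sham mice, which selection on the main effect nearly fixes: so did all 64 miRNAs with an unadjusted p under 0.05. miR-412-5p was the only one that fell (0.165% of those tested). miR-122-5p, miR-3082-3p and miR-135a-5p rose (0.496%), though miR-3082-3p met the filter on low counts only through Xmo libraries. At an unadjusted p under 0.05 there were 64 miRNAs (10.6%), 37 higher (6.12%) and 27 lower (4.46%).

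miR-412-5p is 1 of 2 arms of a hairpin at chromosome 12 (GRCm38.p6, bases 109743303 to 109743325, plus strand), within the long noncoding RNA Mirg of the imprinted Dlk1-Dio3 region, a locus whose miRNAs are made from the maternal chromosome. Its level was 46.7, 33.2 and 37.7 CPM in OVX Xmo libraries and 39.7, 41.3 and 38.2 CPM in sham Xmo libraries. It was 66.4, 66.6 and 67.6 CPM in OVX saline libraries and 74.1, 75.4 and 62.1 CPM in sham saline libraries. Every Xmo library was below every saline library. The level averaged 39.5 ± 4.45 CPM in Xmo libraries and 68.7 ± 5.08 CPM in saline libraries (SD, n = 6 each), a log2 fold change of -0.80 ± 0.10 (SE, edgeR adjusted p = 0.00126). The difference was of like size in each surgery, -0.77 ± 0.14 between OVX groups and -0.83 ± 0.14 between sham groups on the log2 scale, and the test of the difference between the surgeries gave 0.06 ± 0.20 (edgeR unadjusted p = 0.783). Within either surgery alone the adjusted p of edgeR was above 0.05, at 0.0696 for OVX and 0.0716 for sham.

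The 3p arm of the same hairpin did not pass, with a log2 fold change of -0.16 ± 0.14 (SE, edgeR adjusted p = 0.743). It stood at 33.2, 23.3 and 18.5 CPM in OVX Xmo libraries and 35.4, 36.1 and 32.6 CPM in sham Xmo libraries, against 32.2, 32.2 and 33.6 CPM in OVX saline libraries and 33.9, 32.5 and 33.2 CPM in sham saline libraries. Only OVX Xmo 2 and OVX Xmo 3 stood well below the rest. Reads of the 5p arm per read of the 3p arm were 1.12, 1.14 and 1.17 in sham Xmo libraries, against 2.19, 2.32 and 1.87 in sham saline libraries, with no overlap. In OVX mice the ratios overlapped, at 1.41, 1.43 and 2.04 with Xmo and 2.06, 2.07 and 2.01 with saline.

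No other miRNA of the chromosome 12 cluster passed. Of 84 tested miRNAs within 300 kb, 40 were higher and 44 lower in Xmo libraries, and the median log2 fold change was -0.01, beside -0.00 over all 605. At an unadjusted p under 0.05, 2 of them were higher and 8 lower, among them miR-412-5p itself, beside 6.12% higher and 4.46% lower over all 605. Of its 20 tested neighbours within 10 kb, 8 were higher and 12 lower, with log2 fold changes from -0.25 to 0.58.

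miR-122-5p, the miRNA that dominates hepatocytes and regulates lipid metabolism in the liver, had the largest log2 fold change of the 4. The gene lies on chromosome 18 according to the deposited table. The level was 29.4, 107 and 73.9 CPM in OVX Xmo libraries and 32.6, 32.9 and 26.8 CPM in sham Xmo libraries. It was 6.83, 6.40 and 7.70 CPM in OVX saline libraries and 7.80, 8.45 and 8.21 CPM in sham saline libraries. The saline libraries lay within a narrow band, all Xmo libraries were above it, and OVX Xmo 2 and OVX Xmo 3 were far above the other Xmo libraries.

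The log2 fold change of miR-122-5p was 2.62 ± 0.33 over both surgeries (SE, edgeR adjusted p = 0.00126). It was 3.33 ± 0.38 between OVX groups (edgeR adjusted p = 0.00148), the single miRNA of 605 called in OVX mice (0.165%). Between sham groups it was 1.91 ± 0.36 (edgeR adjusted p = 0.0716). The difference between surgeries was 1.41 ± 0.50, with an unadjusted p of 0.0158 and an adjusted p of 0.647 in edgeR. The 3p arm, at 1.29 CPM on average, had a log2 fold change of 0.29 ± 0.37 (edgeR adjusted p = 0.848). The other members of the liver list were not higher: miR-192-5p averaged 243 ± 24.1 CPM in Xmo libraries and 283 ± 10.4 CPM in saline libraries, and miR-194-5p averaged 137 ± 28.7 CPM in Xmo libraries and 187 ± 53.9 CPM in saline libraries (SD, n = 6 each; log2 fold changes -0.22 and -0.45, neither past the test). Both were already far above miR-122-5p in saline libraries (7.57 ± 0.798 CPM). The source of the miR-122-5p rise was not tested.

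miR-135a-5p, which in mouse serotonin neurons is known to repress the serotonin transporter and the receptor Htr1a, rose by the smallest fold of the 4 but was by far the most abundant. It is encoded at chromosome 10 (bases 92072141 to 92072163, minus strand) and at chromosome 9 (bases 106154140 to 106154162, plus strand), the second copy within Glyctk and a long noncoding RNA, D030055H07Rik. Its level was 3500.3, 3781 and 2967 CPM in OVX Xmo libraries and 2605, 3256 and 3541 CPM in sham Xmo libraries. It was 2430.3, 2452 and 2049 CPM in OVX saline libraries and 2369, 2318 and 2323 CPM in sham saline libraries. The treatments did not overlap, although sham Xmo 1 was close to the highest saline library. The log2 fold change was 0.49 ± 0.09 (SE, edgeR adjusted p = 0.0308), with 0.56 ± 0.14 between OVX groups and 0.42 ± 0.13 between sham groups. The call was lost in edgeR's test without 10 of the 12 libraries in turn, the highest adjusted p being 0.126 without sham Xmo 3. It was also lost with no filter on low counts, and with replicate number as a block (edgeR adjusted p = 0.0812).

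miR-135b-5p carries the same seed (AUGGCUU) from another locus. It averaged 585 ± 55.0 CPM in Xmo libraries and 462 ± 152 CPM in saline libraries (SD, n = 6 each), and its log2 fold change of 0.34 ± 0.19 did not pass (edgeR adjusted p = 0.532). Sham saline 3, at 717 CPM, was above all 6 Xmo libraries.

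miR-3082-3p rested on very few reads. It had 8, 10 and 10 reads in OVX Xmo libraries and 10, 4 and 12 in sham Xmo libraries, against 3, 3 and 3 in OVX saline libraries and 4, 1 and 3 in sham saline libraries. The counts of the treatments touched at 4 reads, while the scaled levels did not overlap, at 0.427 to 1.13 CPM in Xmo libraries and 0.101 to 0.390 CPM in saline libraries. The log2 fold change was 1.65 ± 0.30 (SE, edgeR adjusted p = 0.0270), and miR-3082-3p ranked 604 of 605 by level. It met the filter on low counts only through Xmo libraries, the treatment where it was high, so the filter itself favoured a rise. The call was lost with no filter on low counts. It was also lost without 10 of the 12 libraries in turn, with adjusted p up to 0.0849 in edgeR. Its hairpin lies at chromosome 17 (mature strand at bases 25831366 to 25831387, minus strand), where the protein-coding genes Jmjd8 and Stub1 overlap. The 5p arm did not pass (log2 fold change 0.17 ± 0.24).

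**Figure D1:**
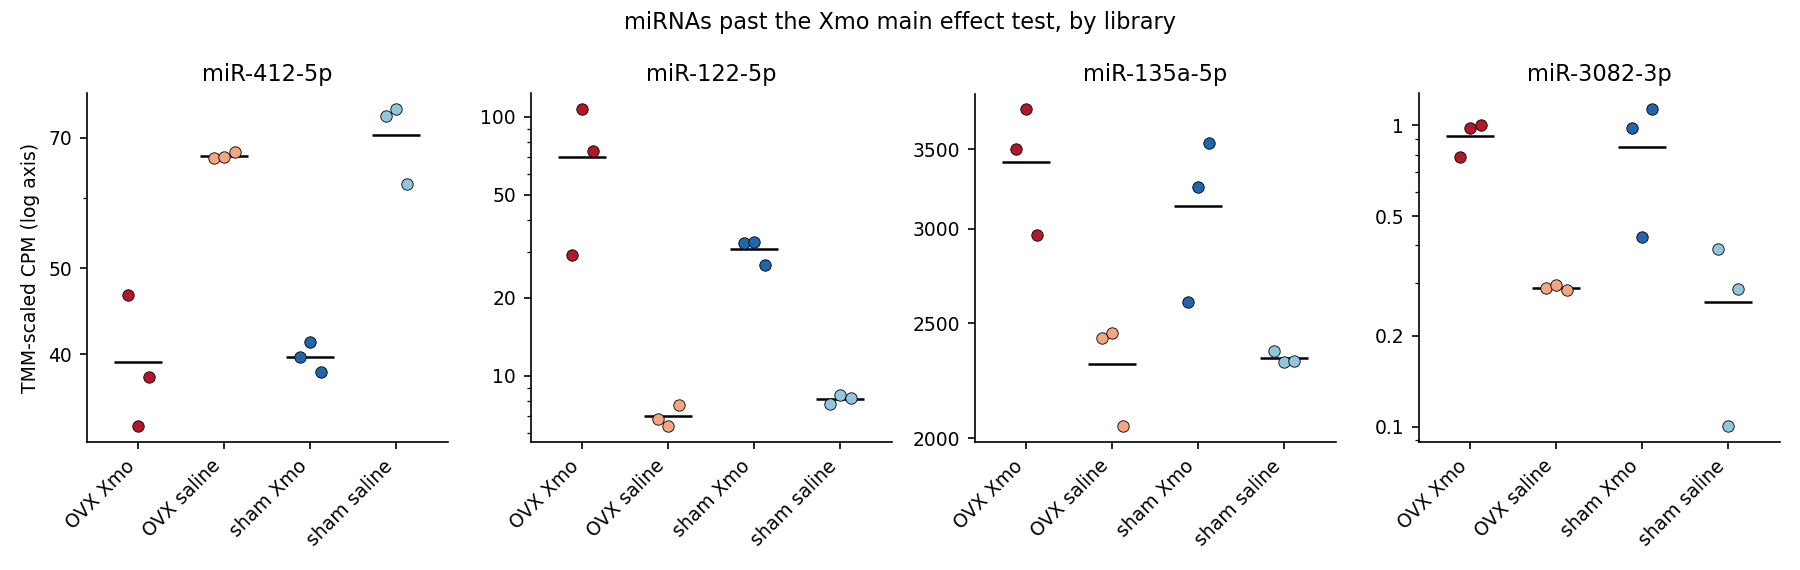
Levels of the 4 miRNAs past the main effect test in every library, as TMM-scaled CPM on log axes that differ between panels; points are libraries and bars are group means (n = 3). The 6 Xmo libraries lie below the 6 saline libraries for miR-412-5p, between 33.2 and 46.7 CPM against 62.1 to 75.4 CPM, and above them for the other miRNAs.

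Fewer than 5 miRNAs passed in each direction, so those with the next smallest p and the same sign in both surgeries are given for description; none of them passed. On the lower side, miR-700-3p, whose hairpin lies on chromosome 4 within Rcan3, had 71.4, 64.5 and 73.6 CPM in OVX Xmo libraries and 72.4, 75.1 and 71.2 CPM in sham Xmo libraries, against 99.6, 87.4 and 82.8 CPM in OVX saline libraries and 101, 84.0 and 88.6 CPM in sham saline libraries. The treatments did not overlap, yet the log2 fold change of -0.34 ± 0.08 had an adjusted p of 0.158 in edgeR. Its 5p arm was at 33.96 ± 6.44 CPM in Xmo libraries and 32.2 ± 4.26 CPM in saline libraries.

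miR-181d-5p belongs to a family known for regulating lymphocyte signalling and abundant in brain. It had 192, 212 and 232 CPM in OVX Xmo libraries and 210.4, 199.5 and 216 CPM in sham Xmo libraries, against 264, 271 and 253 CPM in OVX saline libraries and 269.6, 315 and 234 CPM in sham saline libraries. All 6 Xmo libraries were below all 6 saline libraries, with a log2 fold change of -0.35 ± 0.09 (edgeR adjusted p = 0.162). The other members with its seed (ACAUUCA) were far more abundant and near 0 in change: -0.03 ± 0.12 for miR-181a-5p at 38367 CPM, -0.12 ± 0.16 for miR-181b-5p at 1541 CPM and -0.01 ± 0.09 for miR-181c-5p at 3142 CPM. miR-181c-5p comes from the same stretch of chromosome 8 as miR-181d-5p.

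miR-344-3p and miR-344c-3p come from a cluster on chromosome 7 and share the seed GAUCUAG. miR-344-3p averaged 380.4 ± 28.8 CPM in Xmo libraries and 483 ± 53.8 CPM in saline libraries, and miR-344c-3p averaged 179 ± 12.7 CPM in Xmo libraries and 231 ± 31.4 CPM in saline libraries (SD, n = 6 each). Neither overlapped between treatments, and neither passed (log2 fold changes -0.34 ± 0.09 and -0.36 ± 0.10, edgeR adjusted p = 0.171 and 0.188). Their sequences are near copies of each other, so reads could be divided between them by the counting. Of the 7 tested miRNAs of that cluster, 2 were higher and 5 lower, with a median log2 fold change of -0.18.

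The remaining lower miRNAs by this rule were miR-30c-1-3p (-0.38 ± 0.11), the lesser arm of a miR-30c hairpin in Nfyc, miR-491-5p (-0.31 ± 0.11) and miR-466g (-0.39 ± 0.14), all on the log2 scale and all with overlapping treatments. On the higher side, let-7f-2-3p, the minor arm of a let-7 hairpin in Huwe1, averaged 1.54 ± 0.181 CPM in Xmo libraries and 0.908 ± 0.262 CPM in saline libraries (log2 fold change 0.76 ± 0.18, edgeR adjusted p = 0.158). Its treatments overlapped by 1 saline library, OVX saline 2 at 1.38 CPM. Like miR-3082-3p, let-7f-2-3p met the filter on low counts only through Xmo libraries, so the filter itself favoured a rise. miR-185-3p averaged 2.61 ± 0.627 CPM in Xmo libraries and 1.62 ± 0.466 CPM in saline libraries (0.69 ± 0.20), while the major arm miR-185-5p had a log2 fold change of the opposite sign, -0.42 ± 0.30. miR-466b-3p, miR-466c-3p and miR-466p-3p had the same read counts in all 12 libraries and are 1 measurement under 3 names, at 3.42 ± 1.26 CPM in Xmo libraries and 1.81 ± 0.567 CPM in saline libraries (0.90 ± 0.24, edgeR adjusted p = 0.162).

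Those miR-466 strands belong to the repeated miR-297, miR-466, miR-467 and miR-669 families on chromosome 2, whose copies are near identical and whose reads may be divided between entries. Of their 33 tested entries, 20 were higher and 13 lower in Xmo libraries, none passed, and 8 higher and 1 lower entry had an unadjusted p under 0.05, beside 6.12% higher and 4.46% lower over all miRNAs; 3 of the 8 are the entries with the same counts.

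**Figure D2:**
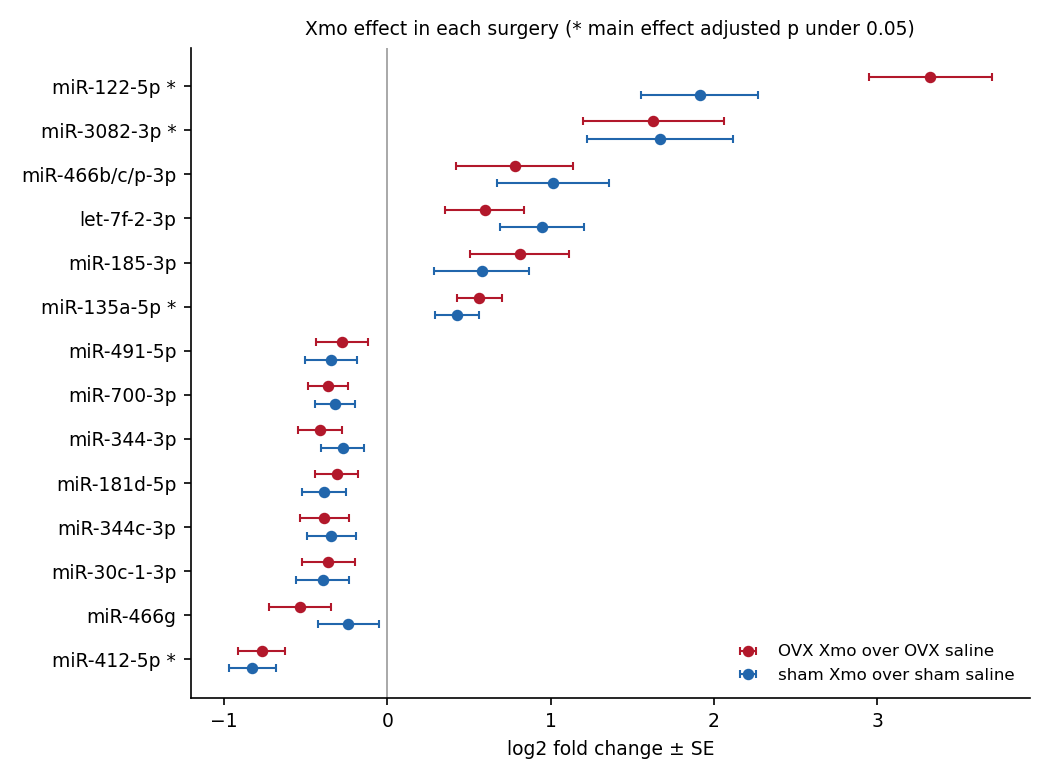
Log2 fold changes of Xmo over saline within OVX mice and within sham mice for the miRNAs named as called or next in rank, with SE bars from edgeR's model of the 4 groups; a star marks an adjusted p under 0.05 for the main effect. Each pair has 1 sign, by the rule that chose them, and miR-122-5p shows the widest gap between surgeries, 3.33 in OVX mice and 1.91 in sham mice.

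The Xmo effects in the 2 surgeries, which share no library, were compared over all 605 miRNAs. The sign was the same for 333 miRNAs (55%), of which 161 were higher in both (26.6%) and 172 lower in both (28.4%). Across miRNAs, which are not independent, Pearson's r between the OVX and sham log2 fold changes was 0.10 and Spearman's rho 0.14. For the 365 miRNAs with a mean of at least 10 CPM, r was 0.07 and 207 had the same sign (56.7%). For the 180 miRNAs with a mean of at least 100 CPM, where counts are more precise, r was 0.15 and 108 had the same sign (60%). In sham mice edgeR called no miRNA at the adjusted threshold (0%), while 57 had an unadjusted p under 0.05 (9.42%) and DESeq2 called 6. In OVX mice 46 miRNAs had an unadjusted p under 0.05 (7.6%) and DESeq2 called 3.

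A count that uses no model was made as well. All 6 Xmo libraries lay on 1 side of all 6 saline libraries for 11 miRNAs (1.82%), 3 of them higher (0.496%) and 8 lower (1.32%). The 3 higher were those that passed, of which miR-3082-3p met the filter on low counts only through Xmo libraries. The 8 lower were miR-412-5p, miR-700-3p, miR-181d-5p, miR-344-3p, miR-344c-3p, miR-195a-3p, miR-496a-3p and miR-12200-3p, of which miR-195a-3p is the lesser arm of a miR-15/16 family hairpin and miR-496a-3p lies in the chromosome 12 cluster. The count was 7 without scaling factors. Within each surgery separately, 17 miRNAs did not overlap and had the same direction in both (2.81%), 7 higher (1.16%) and 10 lower (1.65%), against 3 with opposite directions (0.496%), which were miR-6899-3p, miR-744-3p and miR-760-3p. In OVX mice alone 93 miRNAs did not overlap (15.4%), and in sham mice alone 86 (14.2%).

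**Figure D3:**
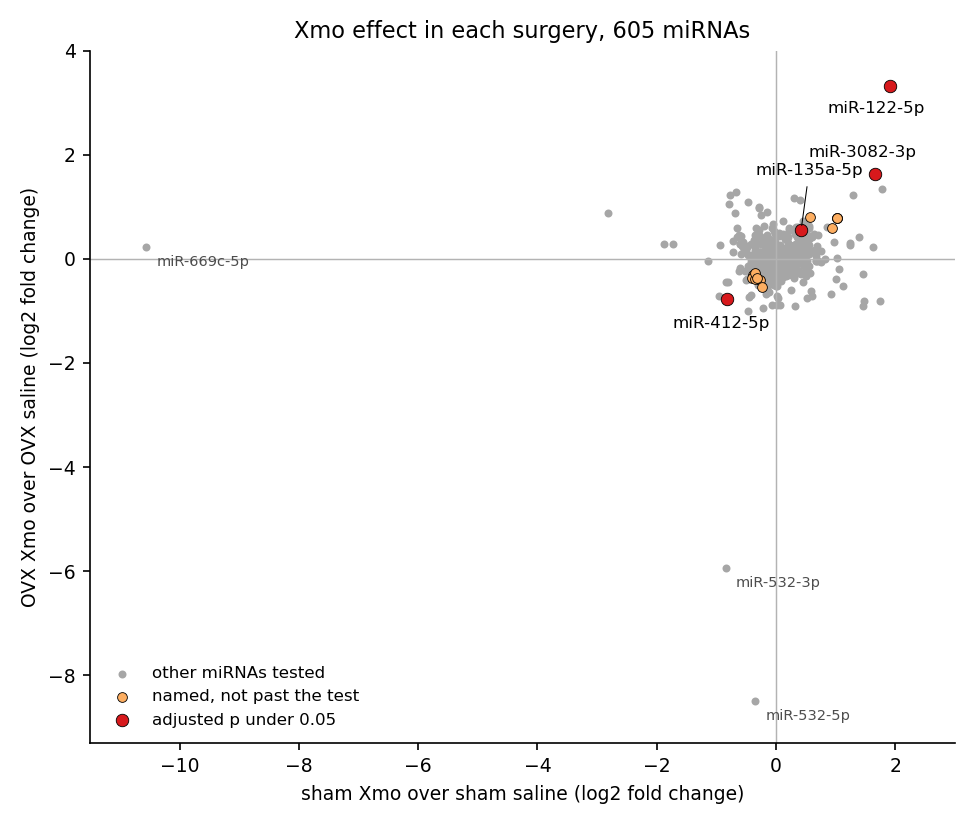
Log2 fold change of Xmo over saline in OVX mice (vertical) against that in sham mice (horizontal) for the 605 tested miRNAs. Points scatter about 0 without a common axis (r = 0.10); miR-122-5p, miR-3082-3p and miR-135a-5p stand in the upper right and miR-412-5p in the lower left, while miR-532-3p, miR-532-5p and miR-669c-5p stand far out. The fitted value of miR-669c-5p in sham mice, whose 3 Xmo libraries had 0 reads, depends on the prior count and is no measure of size.

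No miRNA passed the test of the difference between the surgeries (0% of 605), while 42 had an unadjusted p under 0.05 (6.94%) and DESeq2 called none. The 5 with the smallest p were miR-6899-3p, miR-155-5p, miR-223-3p, miR-1249-3p and miR-3965. miR-155-5p, which is induced in activated macrophages and lymphocytes, had 4.89, 9.44 and 8.60 CPM in OVX Xmo libraries against 4.23, 3.64 and 3.71 CPM in OVX saline libraries, and 4.11, 5.13 and 5.37 CPM in sham Xmo libraries against 5.95, 5.23 and 6.59 CPM in sham saline libraries. miR-223-3p, a miRNA of neutrophils and other myeloid cells, had 9.10, 11.4 and 15.0 CPM in OVX Xmo libraries against 4.71, 4.73 and 7.70 CPM in OVX saline libraries, and 3.52, 3.95 and 8.01 CPM in sham Xmo libraries against 13.7, 5.94 and 7.26 CPM in sham saline libraries. Both were above saline in every OVX Xmo library. In sham mice the treatments overlapped for both. Their differences between surgeries were 1.27 ± 0.35 and 1.84 ± 0.56 on the log2 scale, each with an adjusted p of 0.647 in edgeR. The rest of the microglia and leukocyte list was divided. miR-146a-5p and miR-21a-5p also had opposite signs in OVX and sham mice. miR-142a-3p (log2 fold changes 0.55 in OVX and 0.34 in sham mice), miR-142a-5p, miR-150-5p and miR-146b-5p had the same sign in both.

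Lists of miRNAs for cell types and families gave 1 called member in all, miR-122-5p of the liver list. Over all 605 miRNAs tested, 4 were called (0.661%), so that count is no result about the liver list. The 10 most abundant miRNAs of the libraries, led by miR-9b-3p, miR-26a-5p and miR-124-3p, had log2 fold changes from -0.21 to 0.04 and none passed. The neuronal list split 7 higher and 7 lower with a median of -0.00. The activity and plasticity list, which holds the CREB-induced miR-132 and miR-212 and the dendritic miR-134 and miR-138, split 6 and 6 with a median of -0.03. The oligodendrocyte list, with miR-219a and miR-338 that promote myelination, had 2 higher and 5 lower and a median of -0.10.

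Among the families, all 5 members of the miR-30 family tested, known in fibrosis and autophagy, were higher in Xmo libraries with a median log2 fold change of 0.40, and 3 of them had an unadjusted p under 0.05, beside 6.12% of all 605 on the higher side. These members are not independent measurements. Their summed level overlapped between treatments, at 5244 to 9759 CPM in Xmo libraries and 3850 to 7757 CPM in saline libraries. miR-30d-5p had 1254, 1703 and 2327 CPM in OVX Xmo libraries and 2131, 1535 and 2902 CPM in sham Xmo libraries, against 1527, 1581 and 981 CPM in OVX saline libraries and 1412, 1366 and 1769 CPM in sham saline libraries. The treatments overlapped, and its log2 fold change of 0.45 ± 0.19 did not pass (edgeR adjusted p = 0.413). The 3 members of the miR-29 family, repressors of collagens, were higher too (median 0.27), led by miR-29a-3p at 5666 ± 947 CPM in Xmo libraries and 4430 ± 814 CPM in saline libraries (0.35 ± 0.14, edgeR adjusted p = 0.380). The let-7 family split 4 higher and 5 lower (median -0.04), the miR-17 family 3 and 2 (median 0.04), and the 4 miR-181 members were all lower (median -0.07).

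Markers of other cells varied between libraries within groups. The summed level of the 13 tested miRNAs of choroid plexus and ciliated epithelium ran from 8520 to 52211 CPM in Xmo libraries and from 9034 to 52612 CPM in saline libraries. Nearly all of it was miR-204-5p, the abundant miRNA of choroid plexus, which was highest in OVX Xmo 1 (50704 CPM), OVX saline 3 (50539 CPM) and sham Xmo 3 (43288 CPM). miR-211-5p, which shares the seed of miR-204-5p and is known from pigment cells, had 68.0, 42.1 and 17.1 CPM in OVX Xmo libraries and 16.0, 21.3 and 50.3 CPM in sham Xmo libraries, against 4.52, 9.75 and 35.9 CPM in OVX saline libraries and 7.22, 10.7 and 7.74 CPM in sham saline libraries. Its log2 fold change of 1.55 ± 0.49 did not pass (edgeR adjusted p = 0.331), and OVX saline 3 was above 3 of the Xmo libraries. With the level of miR-204-5p as a covariate, a choice made after the values were seen, miR-211-5p joined the 4 called miRNAs, which remained called.

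The other lists also overlapped between treatments. The summed levels ran from 5509 to 7500 CPM in Xmo libraries and from 5847 to 7643 CPM in saline libraries for microglia and leukocytes, from 20794 to 26814 CPM in Xmo libraries and from 22620 to 32740 CPM in saline libraries for endothelium and vessels, and from 4730 to 10603 CPM in Xmo libraries and from 6184 to 12899 CPM in saline libraries for red blood cells. For muscle they ran from 116 to 180 CPM in Xmo libraries and from 111 to 151 CPM in saline libraries. The median log2 fold changes of these lists were 0.10, 0.09, 0.14 and -0.01 in that order. In OVX mice the medians were 0.30, 0.22, -0.04 and 0.22 in the same order, and in sham mice -0.20, -0.25, 0.32 and -0.17, so each list had opposite signs in the 2 surgeries. The 3 sensory and pineal miRNAs (miR-96-5p, miR-182-5p and miR-183-5p) had a median of -0.80 in OVX mice and 1.48 in sham mice, with none past the test. The part of these cells in the results was not tested.

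Some miRNAs changed by more than 20-fold between libraries of 1 group. A rule chosen after the values were seen, at least 100 reads in 1 library and at most 1/20 of that in another library of its group, found 8 miRNAs. miR-532-5p had 12, 24 and 8 reads in OVX Xmo libraries and 11577, 31 and 7 in sham Xmo libraries, against 16380, 22 and 29 in OVX saline libraries and 14, 13 and 15124 in sham saline libraries. Only 3 libraries held it at a high level, and they came from 3 groups. miR-744-5p had 3713, 3162 and 45 reads in OVX Xmo libraries and 41, 4343 and 8 in sham Xmo libraries, against 13, 19 and 2903 in OVX saline libraries and 3635, 3848 and 34 in sham saline libraries.

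miR-669c-5p, of the chromosome 2 families, had 0, 185 and 170 reads in OVX Xmo libraries and 0 in each sham Xmo library, against 3, 153 and 156 in OVX saline libraries and 155, 234 and 177 in sham saline libraries. It had 0 reads in all sham Xmo libraries and in OVX Xmo 1, and 3 reads in OVX saline 1. With 0 reads a count of up to 3 per library is allowed, for counting error only. None of the 8 passed the main effect test.

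miR-532-3p, the other arm of the miR-532 hairpin on the X chromosome, was the miRNA whose columns did not match each other. The sequence, with its seed in capitals, is given because the arms are distinct strands.
miR-532-3p: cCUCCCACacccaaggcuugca
Its reads were 2, 3 and 3 in OVX Xmo libraries and 241, 2 and 2 in sham Xmo libraries, against 166, 234 and 122 in OVX saline libraries and 278, 158 and 2 in sham saline libraries. In the second column of values per library that the authors deposited, named exp, it was 2, 3 and 3 in OVX Xmo libraries and 2, 1 and 2 in sham Xmo libraries, against 165, 233 and 122 in OVX saline libraries and 277, 158 and 241 in sham saline libraries. Sham Xmo 1 and sham saline 3 thus hold values of 241 and 2 in the read counts, and 2 and 241 in the exp values.

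The direction is the same on both scales but the size is not. On read counts the log2 fold change of miR-532-3p was -2.71 ± 1.35 and did not pass (edgeR adjusted p = 0.478). On exp values it was -6.40 ± 0.29 (edgeR adjusted p = 2.47e-08), and on read counts without sham Xmo 1 it also passed. The authors' deposited table gives mean exp values of 81.333 for sham Xmo and 145.667 for sham saline, where the means of the listed exp values are 1.67 and 225. miR-532-3p was the only 1 of 1387 miRNAs whose deposited mean differed from the mean of its listed values by more than 0.01. In the authors' deposited table its log2 fold change is -6.02 in OVX mice and -0.84 in sham mice. The deposited means of both sham groups follow the order of the read counts, with 241 in sham Xmo 1 and 2 in sham saline 3. The fit on exp values used the listed values, in the other order. Which assignment is right was not tested.

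**Figure D4:**
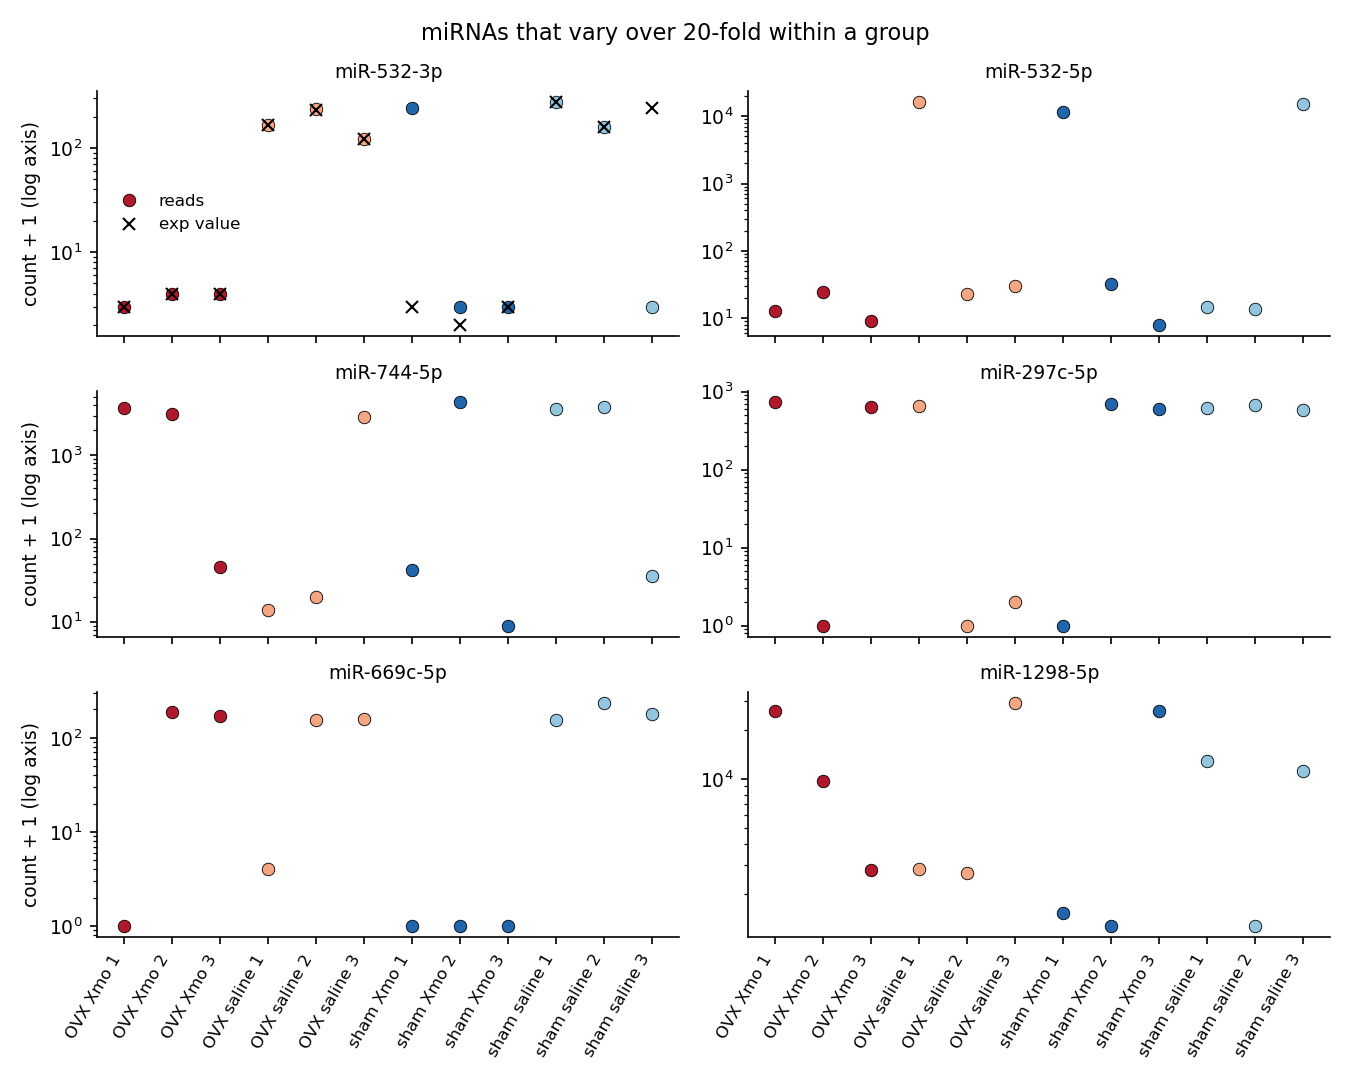
Read counts plus 1 on log axes for 6 of the 8 miRNAs that varied over 20-fold within a group, by library; crosses in the miR-532-3p panel are the exp values. For miR-532-3p the crosses and points part in sham Xmo 1 and sham saline 3, where 241 and 2 stand the other way round.

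The exp values also differed from the reads by treatment. Of 7542 values between 1 and 99 reads, 7216 (95.7%) equalled the read count, and above that exp was a falling share of the reads. For the 20 miRNAs with a mean of at least 100000 reads, exp was 30.8 ± 0.661% of the reads in Xmo libraries and 26.5 ± 0.763% in saline libraries (SD, n = 6 each; two-sided exact permutation test, p = 0.00216, the smallest that 6 against 6 allow; adjusted p = 0.00541 over 5 classes, that of all miRNAs included). The lowest Xmo library was at 29.9% and the highest saline library at 27.6%. For the 186 miRNAs with 100 to 1000 mean reads the shares were 99.3% in Xmo libraries and 99.4% in saline libraries (exact permutation test, p = 0.491).

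On exp values 9 miRNAs passed the main effect test in place of 4. They held miR-412-5p, miR-122-5p and miR-135a-5p, and besides miR-532-3p the abundant let-7c-5p, miR-26a-5p, miR-99a-5p, miR-124-3p and miR-9b-3p. The log2 fold changes of these abundant miRNAs were 0.23, 0.31, 0.21, 0.28 and 0.31 on exp values, against -0.11, -0.03, -0.09, -0.07 and 0.04 on read counts, where none passed. miR-3082-3p did not pass the filter on exp values and was not tested there. No label or header states how exp was computed, and the part of the differing share in these calls was not tested.

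**Figure D5:**
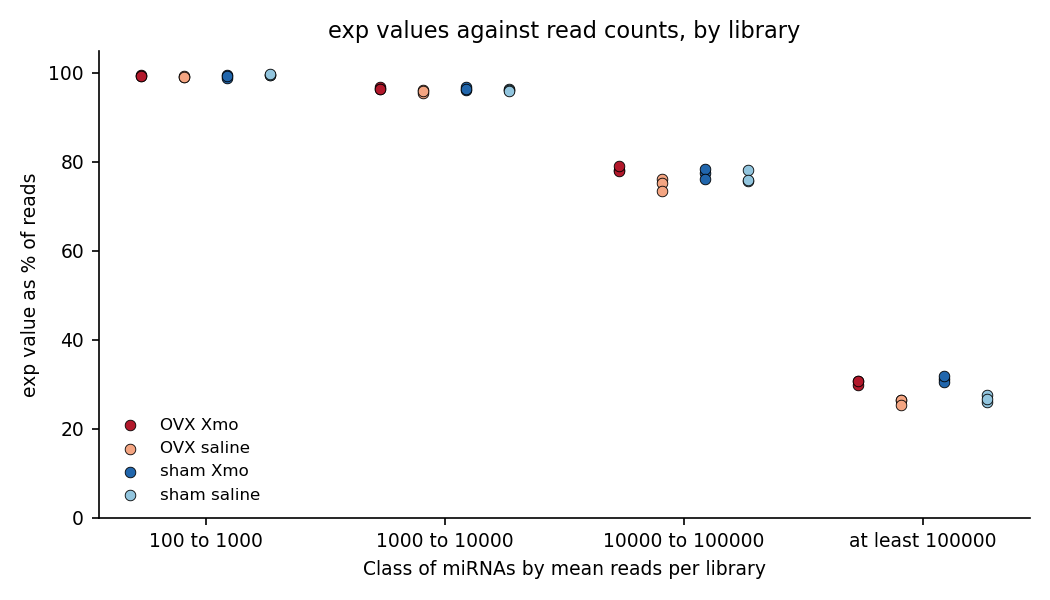
The exp values as a percentage of reads in each library, for miRNAs in 4 classes of mean reads. In the class of at least 100000 reads the Xmo libraries lie from 29.9 to 31.8% and the saline libraries from 25.4 to 27.6%, while in the class of 100 to 1000 reads both are near 99%.

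The authors' own tests, made within each surgery and read here from the authors' deposited table, passed a q-value under 0.05 for 2 miRNAs in OVX mice and 9 in sham mice. In the authors' deposited table miR-122-5p has q-values of 5.37e-14 in OVX mice and 2.91e-14 in sham mice. miR-412-5p has 0.0971 in OVX mice and 0.00443 in sham mice in the authors' deposited table. miR-135a-5p has 0.436 in OVX mice and 0.993 in sham mice, and miR-3082-3p has 0.998 in OVX mice and 0.993 in sham mice, in the authors' deposited table.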

How the data were processed

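The authors deposited whole-number read counts per mature miRNA and library, a second column of values named exp, and log2 fold changes, p-values and q-values per comparison, per the file headers. Mean exp values per group were deposited by the authors too. Bowtie2 2.3.2, StringTie 1.3.3b, Trimmomatic 0.36, FastQC 0.11.2 and the build GRCm38.p6 are named, without roles, per the submitters' processing notes; the labels' protocols name a TruSeq RNA kit. A further 12 columns of per-sample values match no sample and were not used.

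Read counts were filtered with filterByExpr by group, scaled by TMM and fitted with edgeR 4.0.16 (R 4.3.3) quasi-likelihood models: surgery plus treatment for the main effect (9 residual degrees of freedom), and the 4 groups for the effects within each surgery and their difference (8). Each SE is the log2 fold change over the root of F. A Benjamini-Hochberg adjusted p under 0.05 was called. The fitting steps were run on simulated data with 200 miRNAs changed, far more than were called here. That run gives no error rates for these data. DESeq2 1.42.0 and limma 3.58.1 served as alternatives, with those in the closing section. Permutation tests used scipy 1.17.1. Counts limit precision for the rarest miRNAs, and intervals and floors cover counting error only; libraries of a group differed by far more than sampling noise.

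Named miRNAs were those past the main effect threshold with 1 sign in both surgeries, filled to 8 per direction by p, the 5 with the smallest interaction p, the 10 most abundant, the 2 most abundant of each list, and other arms and same-seed relatives. The members and the 15 lists were chosen with earlier results of these data known. Of 605 tested miRNAs, 504 matched RefSeq (GRCm38.p6).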

Additional observations from a re-analysis of the deposited data

Results flagged for a closer look

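For the miRNAs named as called or next in rank, the Xmo and the saline libraries were each examined for a library far from the other 5, which made 32 groups of 6, of which chance flags about 1 in 20. The 3 miR-466 entries with the same counts are 1 measurement, so fewer than 32 of these groups were distinct. There were 3 flagged libraries. OVX saline 3 had the lowest miR-135a-5p of the saline libraries, 2049 CPM, where the other 5 lay from 2318 to 2452 CPM. Sham saline 2 had the lowest miR-3082-3p of the saline libraries, 0.101 CPM from 1 read. OVX Xmo 2 had the lowest miR-700-3p of the Xmo libraries, 64.5 CPM, where the next was at 71.2 CPM. Each lies on the side away from the other treatment.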

How the results depend on the processing

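The main effect called 4 miRNAs. The count was 12 with DESeq2, 2 with no filter on low counts, 9 on the exp columns and 2 to 4 without each library in turn, and the same 4 were called with RLE factors, no scaling factors, limma-voom, robust dispersion, no surgery term and the mean of both contrasts. miR-412-5p and miR-122-5p passed under all 25 alternatives that tested them, with adjusted p up to 0.00839 without 1 library. miR-135a-5p passed under 13 of 25 and miR-3082-3p under 12 of 23, each under 2 of 12 that leave out a library. DESeq2 added miR-181d-5p, miR-211-5p, miR-344-3p, miR-344c-3p, miR-700-3p and the 3 identical miR-466 entries. In OVX mice 1 miRNA was called, 3 with DESeq2, 2 with at least 10 CPM in 3 libraries, 4 on exp and 1 to 3 without each library; with only the 6 OVX libraries the 1 called was miR-532-3p, not miR-122-5p. In sham mice 0 were called, 6 with DESeq2, 1 with no filter, 1 with the stricter filter, 4 on exp, 2 with only the 6 sham libraries and 0 to 2 without each library; without OVX Xmo 1 it was 2 and without OVX Xmo 2 it was 1. The interaction called 0, and 0 to 1 without each library, 1 without OVX Xmo 1. Same-numbered libraries did not deviate together (18 pairs, r from -0.52 to 0.40, median 0.01, 5 over 0.1), so numbers were not taken as a pairing; with the replicate block 3, 1, 0 and 0 miRNAs were called for the main effect, OVX, sham and the interaction. No called direction turned under any alternative. The cause of each change was not tested.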
